A study of Rattus norvegicus with 22 samples.

Results

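The 10 genes followed here belong to the corticotropin-releasing factor (CRF) and glucocorticoid stress pathway and were measured in the nucleus accumbens (NAc) of rats exposed to ethanol (EtOH). They were chosen by name, with no rule on their measured values, though earlier results of these data were known. They were 4 genes of the CRF system (Crh, Crhr1, Crhr2 and Crhbp), both corticosteroid receptors (Nr3c1 and Nr3c2), 3 genes that respond to glucocorticoids (Fkbp5, Sgk1 and Tsc22d3) and the enzyme gene Hsd11b1. All 10 were among the 17310 gene symbols listed.

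Polyadenylated RNA was sequenced from the NAc of 22 adult male Wistar rats, an outbred strain, in 2 separate experiments. In experiment 1, 5 rats with free choice between 6% EtOH and water for 8 weeks (EtOH) were compared with 5 rats that drank water (water). In experiment 2, 12 rats all had access to 6% EtOH for 4 weeks, before the gavage, and for 2 weeks after it. During the 3 weeks of gavage between these periods, 6 of them received 2.5 g/kg of 30% EtOH by gavage 2 times per day (EtOH gavage) and 6 received water by gavage (water gavage). The control rats of experiment 2 therefore also drank EtOH, and no group of experiment 2 was without it. Gavage is itself a stressor, and both groups of experiment 2 received it. All rats were single housed. The tissue was a bulk dissection of core and shell, in which fewer cells of a type and less RNA per cell cannot be told apart.

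In the stress axis, CRF from the hypothalamus drives the release of adrenocorticotropic hormone and, through it, of corticosterone, the main glucocorticoid of the rat. CRF also acts within the brain as a neuropeptide, and its signalling in the extended amygdala and NAc is known for its part in stress and alcohol seeking. Corticosterone enters cells and binds the mineralocorticoid and glucocorticoid receptors, which move to the nucleus and induce genes such as Fkbp5, Sgk1 and Tsc22d3.

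Reads assigned to genes numbered 2962291 to 5247386 per rat in experiment 1 and 6713617 to 8765472 in experiment 2. Values are given as CPM, the reads of a gene scaled to a common number of assigned reads per library with TMM factors. Fold changes come from edgeR's quasi-likelihood test, fitted over the 8655 genes of each experiment whose mean count was above the median of all listed genes, with P-values adjusted by the Benjamini-Hochberg method (FDR). Of the members, 7 were tested in each experiment, and Crh, Crhr1 and Crhr2 fell below the filter in both. Each member was also compared by a two-sided exact permutation test on log2 CPM, whose smallest possible p is 0.00794 in experiment 1 and 0.00216 in experiment 2. The 10 listed markers of striatal projection neurons were detected in both experiments, with sums of 2910 to 5670 CPM in experiment 1 and 4490 to 8810 CPM in experiment 2. The share of reads outside annotated genes ranged from 48.4 to 51.1% in experiment 1 and from 46.1 to 58.0% in experiment 2. These are reads that the counting assigned to no feature, which may include reads in introns, as the counting options were not given. The 5 libraries with the largest shares in experiment 2 were water gavage 1 and 5 and EtOH gavage 1, 2 and 3, at 51.7 to 58.0%. The shares were continuous, with the next library at 51.1%, and the number of 5 was chosen after the data were seen, these being the rats with high Sgk1. Fold changes without these 5 libraries are therefore given as descriptions, with no test.

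No member passed an FDR of 0.05 in either experiment. This was also true of every other gene, as the share of tested genes called was 0% in experiment 1 and 0% in experiment 2. An unadjusted p under 0.05 was reached by 0 of the 7 members in each experiment, against 5.58% of all tested genes in experiment 1 and 1.33% in experiment 2. With the share of reads outside genes as a covariate in experiment 2, it was reached by 1 of 7 members (14.3%), against 1.87% of all tested genes. In each experiment 6 of 7 members had a positive fold change, where 49.5% and 50.1% of all tested genes did. The median log2 fold change of the members was 0.06 in experiment 1 and 0.27 in experiment 2, beside medians of 0.00 over all genes. The count of positive members and the median of experiment 2 were lower under both alternatives that concern reads outside genes. With the share as a covariate, 3 of 7 members were positive with a median of 0.00, beside 46.1% of all tested genes. Without the 5 libraries 3 of 7 were positive with a median of -0.07, beside 48.5% of all tested genes. Neither alternative can check the direction, since the 5 libraries, which had the largest shares, were the rats with high Sgk1. The median standard error of the members was 0.10 and 0.22. The groups overlapped for all 10 members in both experiments. Over all tested genes, groups without overlap were found for 0.786% in experiment 1 and for 0.0116% in experiment 2.

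**Figure D1:**
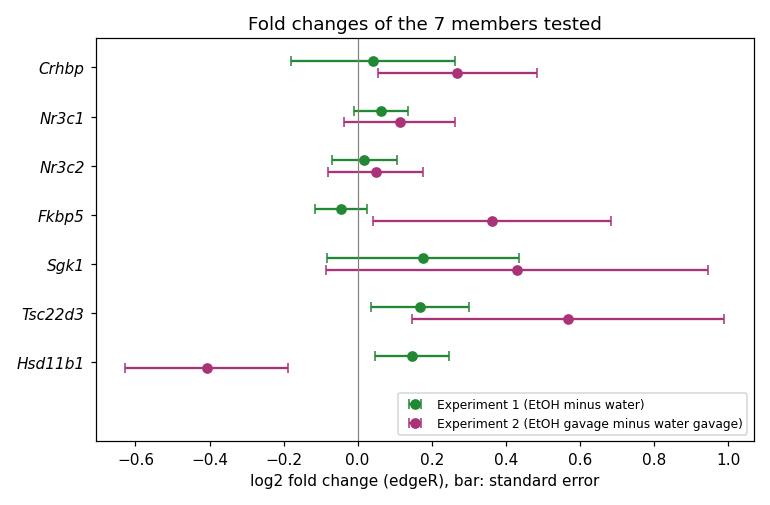
Log2 fold change of EtOH minus water (experiment 1, n = 5 per group) and EtOH gavage minus water gavage (experiment 2, n = 6 per group) for the 7 members tested, with bars for the standard error from edgeR. The bars were wider in experiment 2 for 6 of 7 genes, Crhbp being the exception, and Sgk1 had the widest, at 0.52.

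Among the genes of the CRF system, the ligand and both receptors were sparsely counted. Crh, which encodes CRF itself, had between 1 and 17 reads per rat in experiment 1 and between 0 and 20 in experiment 2. In water rats Crh was 0.339, 0.266, 1.90, 2.39 and 3.27 CPM, and in EtOH rats it was 2.36, 3.37, 2.29, 1.595 and 1.43 CPM. All 5 EtOH rats were above the lowest pair of water rats, and the groups overlapped. The mean difference of 0.57 in log2 CPM had an exact permutation p of 0.333. In experiment 2 Crh ranged from 0 to 2.35 CPM (median 0.649) with water gavage and from 0 to 1.33 CPM (median 0.526) with EtOH gavage. The mean difference was -0.22 in log2 CPM (exact permutation p = 0.710). Water gavage 5 and EtOH gavage 1 held no Crh read, which allows up to 0.417 and 0.452 CPM (3 reads, counting error only). Without the 5 libraries the difference was -0.35.

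Crhr1, the receptor through which CRF mainly acts, was at 8.47, 8.51, 11.8, 8.53 and 10.2 CPM in water rats and at 7.74, 9.33, 11.0, 4.79 and 8.89 CPM in EtOH rats. EtOH 4 was the lowest of the 10 and water 3 the highest, with overlap of the groups (difference -0.21 in log2 CPM, exact permutation p = 0.405). In experiment 2 it was at 4.68, 8.64, 8.41, 11.98, 3.20 and 6.07 CPM with water gavage and at 4.67, 4.10, 5.25, 10.1, 6.05 and 9.89 CPM with EtOH gavage (difference -0.06, exact permutation p = 0.857). The 5 lowest values, 3.20 to 5.25 CPM, were those of the 5 libraries with the most reads outside genes, and the other 7 rats were between 6.05 and 11.98 CPM. Without those 5 libraries the difference was -0.01.

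Crhr2, the receptor preferred by the urocortins, had 0 to 16 reads per rat in experiment 1 and 0 to 14 in experiment 2. Its median was 0.385 CPM in water rats (range 0 to 3.46) and 1.04 CPM in EtOH rats (range 0.229 to 4.59). With water gavage the median was 0.751 CPM (range 0 to 1.75), and with EtOH gavage it was 0.255 CPM (range 0 to 1.41). The groups overlapped widely in both experiments (difference 0.71, exact permutation p = 0.302, and difference -0.51, exact permutation p = 0.437). In experiment 2 it was -0.26 without the 5 libraries. A level of 0 was counted in water 1, water gavage 5 and EtOH gavage 1 and 2, which allows up to 1.02, 0.417, 0.452 and 0.473 CPM.

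Crhbp, a secreted protein that binds CRF and limits its access to receptors, passed the filter. In experiment 1 it was at 9.15, 14.9, 10.8, 16.7 and 23.7 CPM in water rats and at 13.1, 19.4, 14.2, 15.4 and 15.8 CPM in EtOH rats. The water rats spanned a wider range that contained all 5 EtOH rats. In the fit the log2 fold change was 0.04 ± 0.22 (SE, n = 5 per group, edgeR adjusted p = 0.995). In experiment 2 Crhbp was at 15.4, 18.5, 19.6, 20.9, 9.31 and 20.4 CPM with water gavage and at 19.7, 15.3, 24.0, 20.2, 26.0 and 23.2 CPM with EtOH gavage. The 3 highest values were in EtOH gavage rats, and the lowest was in water gavage 5. The edgeR estimate of the log2 fold change was 0.27 ± 0.21 (SE, n = 6 per group, edgeR adjusted p = 0.675), with 5 of 6 EtOH gavage rats above the water gavage median. The difference in log2 CPM was 0.33 (exact permutation p = 0.152), and with single rats left out it ranged from 0.16 without water gavage 5 (exact permutation p = 0.301) to 0.42 without EtOH gavage 2 (exact permutation p = 0.0433, unadjusted). In the fit it was 0.48 with the share of reads outside genes as a covariate (edgeR adjusted p = 1) and 0.18 without the 5 libraries.

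**Figure D2:**
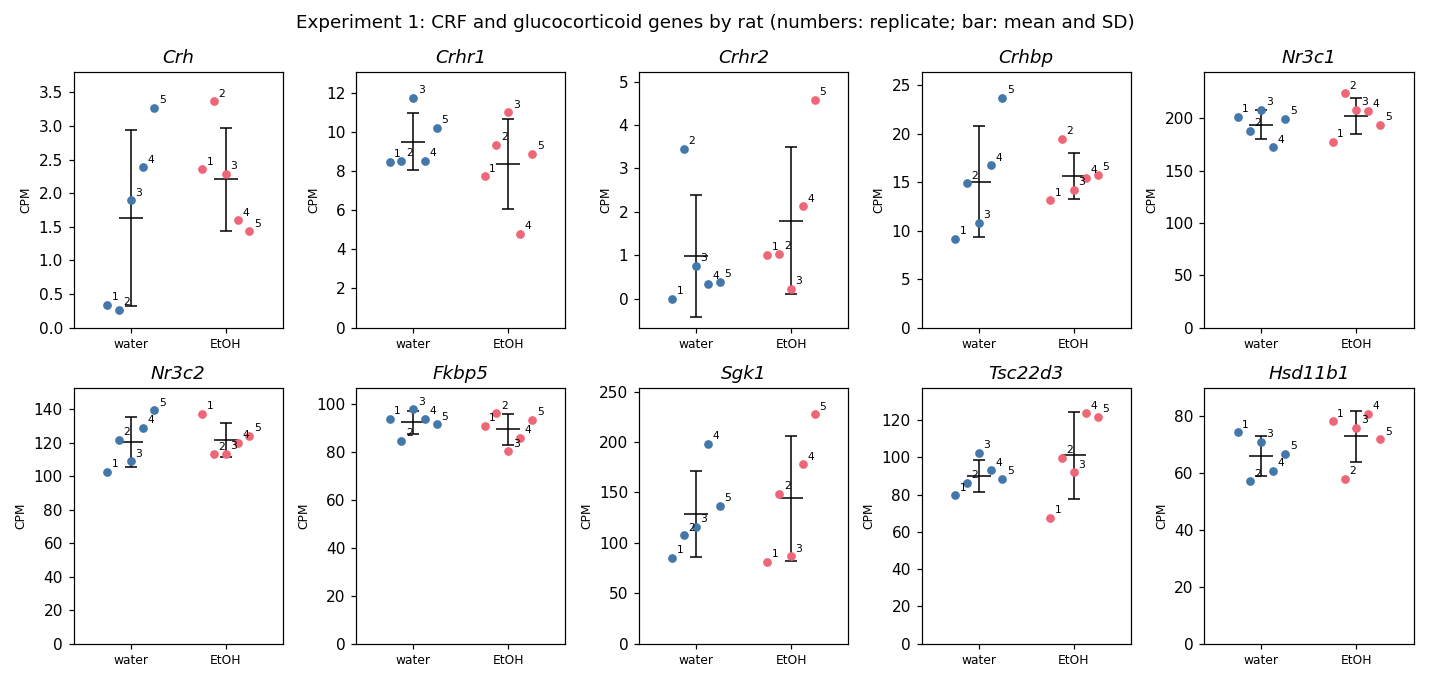
CPM of the 10 members in each rat of experiment 1, with water in blue and EtOH in red (n = 5 per group). Numbers are replicate numbers, and bars give the mean and SD. The groups overlap in all 10 panels, and Fkbp5 and Nr3c1 show little spread beside Sgk1.

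The corticosteroid receptors varied little between rats in experiment 1. Nr3c1, the glucocorticoid receptor, was at 202, 188, 208, 172 and 199 CPM in water rats and at 178, 224, 208, 207 and 194 CPM in EtOH rats. The highest and the lowest of the 10 rats differed 1.30 times, and the groups overlapped. The log2 fold change was 0.06 ± 0.07 (SE, n = 5 per group, edgeR adjusted p = 0.963). In experiment 2 Nr3c1 was at 249, 226, 212, 225, 351 and 258 CPM with water gavage and at 394, 279, 205, 249, 283 and 274 CPM with EtOH gavage. EtOH gavage 1 and water gavage 5 stood above the other 10 rats, 1 in each group. In the fit the log2 fold change was 0.11 ± 0.15 (SE, n = 6 per group, edgeR adjusted p = 0.718). It was -0.03 with the share of reads outside genes as a covariate (adjusted p = 1) and 0.18 without the 5 libraries. With single rats left out it ranged from 0.01 without EtOH gavage 1 to 0.22 without water gavage 5.

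Nr3c2, the mineralocorticoid receptor, which binds corticosterone with the higher affinity, was at 103, 122, 109, 129 and 139.6 CPM in water rats and at 138, 113, 114, 120.2 and 124 CPM in EtOH rats. All 5 EtOH rats fell inside the range of the water rats (log2 fold change 0.02 ± 0.09, SE, n = 5 per group, edgeR adjusted p = 0.995). In experiment 2 it was at 145, 136, 129, 126, 95.1 and 131 CPM with water gavage and at 167.5, 151, 108, 128, 133 and 122 CPM with EtOH gavage. The lowest rat was water gavage 5 and the highest EtOH gavage 1. The edgeR estimate of the log2 fold change was 0.05 ± 0.13 (SE, n = 6 per group, edgeR adjusted p = 0.850), and it was -0.08 without the 5 libraries.

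Hsd11b1, the enzyme that regenerates active corticosterone inside cells, was at 74.2, 56.9, 70.9, 60.7 and 66.6 CPM in water rats and at 78.1, 57.8, 75.7, 80.6 and 71.7 CPM in EtOH rats. Of the EtOH rats, 4 of 5 were above the water median, and EtOH 2 was near the lowest water rat. The log2 fold change was 0.15 ± 0.10 (SE, n = 5 per group, edgeR adjusted p = 0.914). The difference of 0.14 in log2 CPM had an exact permutation p of 0.214. With single rats left out it ranged from 0.09 without water 2 (exact permutation p = 0.429) to 0.22 without EtOH 2 (exact permutation p = 0.0397, unadjusted). In experiment 2 the fold change had the other sign. Hsd11b1 was at 69.7, 65.7, 99.5, 96.8, 140.2 and 82.9 CPM with water gavage and at 62.1, 71.3, 39.1, 81.4, 83.4 and 89.6 CPM with EtOH gavage. No EtOH gavage rat exceeded the water gavage median of 89.9 CPM, while water gavage 1 and 2 were below several EtOH gavage rats. In the fit the log2 fold change was -0.41 ± 0.22 (SE, n = 6 per group, edgeR adjusted p = 0.675, exact permutation p = 0.156). Its edgeR p before adjustment, 0.0853, was the lowest of the 7 members. The fold change stayed negative with the share of reads outside genes as a covariate. Without the 5 libraries, which held both the highest and the lowest Hsd11b1 value, it was -0.07. The difference between the experiments was not tested, since they were sequenced with different library protocols.

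The 3 glucocorticoid-responsive genes were described next. Fkbp5 encodes a co-chaperone of the receptor complex that lowers the affinity of the receptor for hormone and is itself induced by glucocorticoids. Sgk1 encodes a serine/threonine kinase that regulates ion channels and transporters, and Tsc22d3 encodes the glucocorticoid-induced leucine zipper (GILZ). The start regions of these genes, as RefSeq gives them for GRCr8, are shown because the results below turn on these 3 genes. Each window runs from 250 bases before the start to 50 bases after it, 5′ to 3′ on the strand of the gene. Capitals mark TATAAA. One window was listed for Fkbp5 and 3 for each of the other two, of which the one with TATAAA nearest the start is shown. The gene counts do not tell which start was used.
Fkbp5 (chr20:6543506-6543805, minus strand): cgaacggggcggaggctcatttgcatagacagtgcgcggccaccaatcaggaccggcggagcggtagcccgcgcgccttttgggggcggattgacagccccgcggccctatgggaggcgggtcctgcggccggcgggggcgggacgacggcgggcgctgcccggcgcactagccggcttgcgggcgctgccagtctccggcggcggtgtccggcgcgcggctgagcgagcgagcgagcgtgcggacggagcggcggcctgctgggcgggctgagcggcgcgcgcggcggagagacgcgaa
Sgk1 (chr1:24804782-24805081, minus strand): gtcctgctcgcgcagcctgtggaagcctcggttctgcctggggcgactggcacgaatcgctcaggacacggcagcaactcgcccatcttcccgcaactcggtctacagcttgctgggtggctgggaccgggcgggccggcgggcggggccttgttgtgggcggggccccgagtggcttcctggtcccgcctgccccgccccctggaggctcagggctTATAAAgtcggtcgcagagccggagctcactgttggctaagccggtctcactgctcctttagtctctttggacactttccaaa
Tsc22d3 (chrX:109009985-109010284, minus strand): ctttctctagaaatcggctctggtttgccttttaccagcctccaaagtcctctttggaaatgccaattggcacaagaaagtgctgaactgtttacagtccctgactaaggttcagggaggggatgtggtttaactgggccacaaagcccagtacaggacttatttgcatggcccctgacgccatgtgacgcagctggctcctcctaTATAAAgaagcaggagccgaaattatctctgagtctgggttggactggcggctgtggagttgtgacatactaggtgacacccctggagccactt

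The 3 windows differed in composition, with 77% G and C for Fkbp5, 66.0% for Sgk1 and 50.7% for Tsc22d3. The windows not shown had 40.7 and 51.7% for Sgk1 and 52.0 and 73.0% for Tsc22d3. TATAAA began 33 bases upstream of the start in Sgk1 and 44 bases upstream in Tsc22d3, and the Fkbp5 window held none. The Sgk1 and Tsc22d3 windows shown were picked for this motif. On either strand (TATAAA or TTTATA), it was in 4 of the 13 windows listed for the members and in 14.2% of the 33469 rat windows. The receptor half-site AGAACA, or its reverse complement TGTTCT, was in none of the 13 windows listed for 7 of the members and in 20.7% of all windows. Only exact matches from 250 bases before to 50 bases after the start were sought. Receptor sites farther away, within introns or of another sequence were not looked for. RefSeq windows for Crh, Nr3c2 and Hsd11b1 were not used here.

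In experiment 1 Fkbp5 was the least variable member, with 93.8, 84.6, 97.8, 93.8 and 91.4 CPM in water rats and 90.8, 96.1, 80.2, 85.9 and 93.4 CPM in EtOH rats. The extremes differed 1.22 times, and only 1 EtOH rat was above the water median. The edgeR estimate of the log2 fold change was -0.04 ± 0.07 (SE, n = 5 per group, edgeR adjusted p = 0.983). Sgk1 varied most among the members that were tested, with 85.0, 107, 116, 198 and 136.5 CPM in water rats and 81.4, 149, 86.7, 178 and 227 CPM in EtOH rats. High and low rats occurred in both groups, and the extremes differed 2.79 times. The log2 fold change was 0.18 ± 0.26 (SE, n = 5 per group, edgeR adjusted p = 0.978), and it became -0.05 when EtOH 5 was left out. Tsc22d3 was at 79.6, 86.4, 103, 93.1 and 88.6 CPM in water rats and at 67.6, 99.8, 91.9, 124 and 122 CPM in EtOH rats. Of the EtOH rats, 4 of 5 were above the water median, while EtOH 1 was the lowest of all. In the fit the log2 fold change was 0.17 ± 0.13 (SE, n = 5 per group, edgeR adjusted p = 0.924).

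Within experiment 1, Sgk1 and Tsc22d3 were related from rat to rat, with a p that passed 0.05 after adjustment over its 3 relations for rho and not for r. Over the 10 rats, with the group means removed, Pearson's r was 0.78 (permutation p = 0.0186) and Spearman's rho was 0.87 (permutation p = 0.00962). Adjusted over the 3 relations of experiment 1, the p was 0.0558 for r and 0.0289 for rho. Adjusted as planned over 6 relations, with the 3 of experiment 2, it was 0.0279 and 0.0144. These lower values rest on the correlations of experiment 2, which are not given because its rats fell into separate sets. Without the 2 rats farthest from the median of Sgk1, r was 0.64. Leaving out EtOH 2 gave r = 0.79 with a permutation p of 0.0647. For Fkbp5 and Sgk1, r was 0.34 (permutation p = 0.390, adjusted over 3 relations 0.585) and rho 0.25 (permutation p = 0.544, adjusted 0.630), and r was -0.04 without the 2 farthest rats. For Fkbp5 and Tsc22d3, r was 0.13 (permutation p = 0.774, adjusted 0.774) and rho 0.20 (permutation p = 0.630, adjusted 0.630), and r was -0.02 without the 2 farthest rats.

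**Figure D3:**
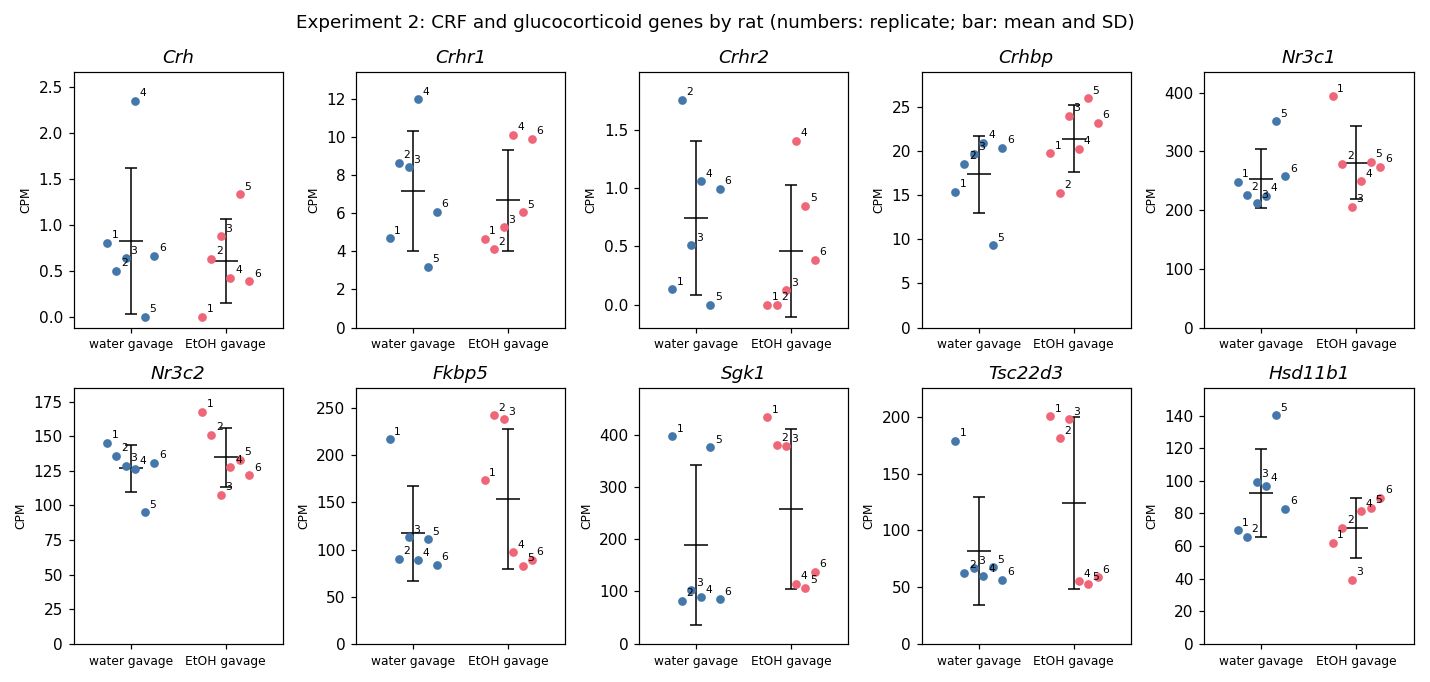
CPM of the 10 members in each rat of experiment 2, with water gavage in blue and EtOH gavage in red (n = 6 per group). Numbers are replicate numbers, and bars give the mean and SD. Rats of Fkbp5, Sgk1 and Tsc22d3 fall into a high and a low set that crosses the groups, with 1 or 2 high rats in water gavage and 3 in EtOH gavage.

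In experiment 2 these genes fell into separate high and low levels, and the split did not follow the gavage groups. Tsc22d3 was at 179, 62.7, 66.5, 59.7, 67.4 and 56.2 CPM with water gavage and at 200.3, 181, 198, 55.2, 52.4 and 58.4 CPM with EtOH gavage. Water gavage 1 and EtOH gavage 1, 2 and 3 lay at 179 to 200.3 CPM, and the other 8 rats at 52.4 to 67.4 CPM, a gap of 2.66 times between neighbours. Fkbp5 was at 217, 90.3, 113, 88.6, 111 and 83.7 CPM with water gavage and at 174, 242, 238, 97.2, 82.8 and 89.0 CPM with EtOH gavage. Its 4 highest rats were the 4 that were highest for Tsc22d3, at 174 to 242 CPM against 82.8 to 113 CPM in the others, a gap of 1.53 times. Sgk1 was at 397, 82.5, 102, 88.8, 376 and 85.3 CPM with water gavage and at 433, 379.5, 378, 115, 107 and 138 CPM with EtOH gavage. The same 4 rats were high for Sgk1, joined by water gavage 5, at 376 to 433 CPM against 82.5 to 138 CPM, a gap of 2.73 times. Water gavage 5 was thus high for Sgk1 while its Fkbp5 and Tsc22d3 stayed in the lower set.

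No group difference passed the test for these genes, whose high rats were divided 1 to 3 between water gavage and EtOH gavage for Fkbp5 and Tsc22d3 and 2 to 3 for Sgk1. For Tsc22d3 the log2 fold change was 0.57 ± 0.42 (SE, n = 6 per group, edgeR adjusted p = 0.675) and the exact permutation p was 0.496. For Fkbp5 it was 0.36 ± 0.32 (SE, n = 6 per group, edgeR adjusted p = 0.675) with an exact permutation p of 0.424. For Sgk1 it was 0.43 ± 0.52 (SE, n = 6 per group, edgeR adjusted p = 0.698) with an exact permutation p of 0.253, and all 6 EtOH gavage rats were above the water gavage median of 95.4 CPM. Single rats moved these values. Without water gavage 1 the log2 fold change was 0.94 for Tsc22d3, 0.62 for Fkbp5 and 0.78 for Sgk1, and the lowest values were 0.37 and 0.19 without EtOH gavage 3 for Tsc22d3 and Fkbp5 and 0.25 without EtOH gavage 1 for Sgk1.

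The rats with high values were those with many reads outside annotated genes. The 5 libraries with the largest shares were the 5 rats high for Sgk1, and 4 of them were high for Fkbp5 and Tsc22d3. The share was 54.5% in water gavage 1, 52.8% in water gavage 5, and 58.0, 56.4 and 51.7% in EtOH gavage 1, 2 and 3. EtOH gavage 6 was the next, at 51.1%, and it lay in the lower set of all 3 genes. With this share as a covariate, the log2 fold change of EtOH gavage was 0.03 for Fkbp5, 0.05 for Tsc22d3 and -0.13 for Sgk1 (edgeR adjusted p = 1 for each). With the 5 libraries left out, which leaves 4 water gavage and 3 EtOH gavage rats, it was -0.11 for Fkbp5, -0.19 for Tsc22d3 and 0.38 for Sgk1. How much of the members' levels went with the share of reads outside genes was not tested further.

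Markers of other cells also differed among these rats. The summed level of the 5 listed markers of cortical and pallial excitatory neurons (of 6 chosen) was 5.48 CPM in water gavage 1, 1.25 in water gavage 5, 2.71 in EtOH gavage 1, 36.7 in EtOH gavage 2 and 396 in EtOH gavage 3. In the other 7 rats it ranged from 67.2 to 516 CPM. The 8 septal and hypothalamic markers summed to 33.3 and 21.7 CPM in water gavage 1 and 5. They summed to 25.5, 38.6 and 65.6 CPM in EtOH gavage 1, 2 and 3, against 46.8 to 114 CPM in the other 7 rats. Astrocyte markers summed to 4120 and 4420 CPM in water gavage 1 and 5. They summed to 5533, 4118 and 3115 CPM in EtOH gavage 1, 2 and 3, against 3023 to 4288 CPM in the other 7 rats. The sum of the 6 microglia markers was 180 CPM in water gavage 1 and 169.5, 192 and 235 CPM in EtOH gavage 1, 2 and 3, against 266 to 377 CPM in the other 8 rats. The 4 rats high for all 3 genes were also lowest for the 5 listed endothelial markers (168 to 218 CPM, against 219 to 375 CPM) and for the 6 fibroblast and pericyte markers (56.7 to 67.6 CPM, against 91.3 to 325 CPM). Water gavage 5 had the highest sums of oligodendrocyte markers (15630 CPM, others 8368 to 11910) and of striatal projection neuron markers (8811 CPM, others 4495 to 6413). Of these lists only that of fibroblasts held a marker at 0 in every rat, Col1a2. The part of these differences in the levels of Fkbp5, Sgk1 and Tsc22d3 was not tested.

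**Figure D4:**
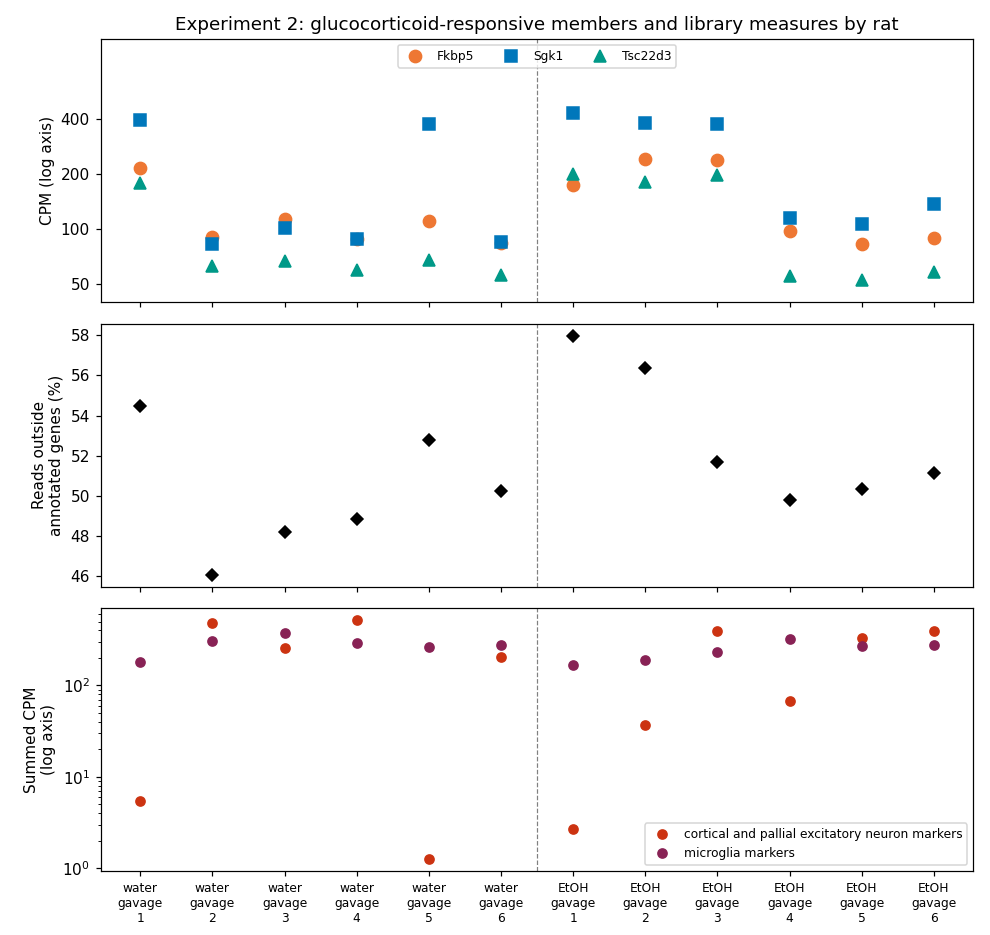
Per-rat CPM of Fkbp5, Sgk1 and Tsc22d3 (log axis), share of reads outside annotated genes (%) and summed CPM of cortical and microglia markers (log axis) in the 12 rats of experiment 2, water gavage left of the dashed line. Water gavage 1 and EtOH gavage 1, 2 and 3 are high for all 3 genes and lie at 51.7% or more in the share of reads outside genes.

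The planned correlations over all 12 rats of experiment 2 were computed, but they are not given, because the rats fell into separate sets. Relations between the 3 genes are given within the lower set in their place, a choice made after the data were seen. Fkbp5 and Tsc22d3 had r = 0.80 over 8 rats (exact permutation p = 0.0189, adjusted over 3 relations 0.0567) and rho = 0.71 (exact permutation p = 0.0576). Water gavage 3 and 5 were the highest of these 8 rats for both genes, and water gavage 5 was high for Sgk1. For this pair r without these rats was not computed. Fkbp5 and Sgk1 had r = 0.15 over 7 rats (exact permutation p = 0.737) and rho = 0.11 (exact permutation p = 0.840). Sgk1 and Tsc22d3 had r = -0.26 over 7 rats (exact permutation p = 0.573) and rho = -0.43 (exact permutation p = 0.354). Among these 7 rats Sgk1 was at 107 to 138 CPM with EtOH gavage and at 82.5 to 102 CPM with water gavage. Tsc22d3 was at 52.4 to 58.4 CPM and at 56.2 to 66.5 CPM. The group difference thus enters these r values, and r with group means removed was not computed in this set. They cannot be set against those of experiment 1. The high sets, of 4 or 5 rats, were too small for a correlation.

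Genes with the most similar pattern were ranked by the lower of the r values of the 2 experiments, over the 10 and the 12 rats and the 8176 genes tested in both. These values are descriptions, since the rats of experiment 2 formed sets. For Fkbp5 the nearest were Ankfy1 (r = 0.78 and 0.89), Vldlr, a lipoprotein receptor (0.83 and 0.76), and Secisbp2l (0.89 and 0.75). For Sgk1 they were Gpatch4 (0.92 and 0.91), Rhob, a small GTPase (0.92 and 0.88), and Adipor2, an adiponectin receptor (0.85 and 0.93). For Tsc22d3 they were Edem1, which acts in the degradation of misfolded glycoproteins (0.89 and 0.92), Mre11a, a DNA repair nuclease (0.86 and 0.94), and Taf2, a subunit of the general transcription factor TFIID (0.84 and 0.84).

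The wider pathway was read from 5 lists with 69 genes, of which 65 were listed. In experiment 1, 36 of these were tested, 27 with positive and 9 with negative fold changes, and none passed the FDR. In experiment 2, 37 were tested, 25 positive and 12 negative, again with none past the FDR. The positive shares were 75% and 67.6%, beside 49.5% and 50.1% of all tested genes. With the share of reads outside genes as a covariate in experiment 2, 15 of 37 were positive (40.5%), beside 46.1% of all tested genes. An unadjusted p under 0.05 was reached by 2 genes in experiment 1, both higher in EtOH rats, and by 0 in experiment 2. The 2 of 36 genes are 5.56%, beside 5.58% of all tested genes. Both belonged to the list of glucocorticoid-induced genes. Gjb6, an astrocytic gap junction protein, was at 29.5 to 52.1 CPM in water rats and 44.1 to 65.4 CPM in EtOH rats (log2 fold change 0.48 ± 0.16, SE, n = 5 per group, edgeR adjusted p = 0.823), with a p of 0.00729 before adjustment. Arrdc2, an arrestin-domain protein, was at 14.0 to 20.8 CPM and 18.6 to 24.7 CPM (0.30 ± 0.14, SE, n = 5 per group, edgeR adjusted p = 0.866), with a p of 0.0468 before adjustment. In experiment 2 their fold changes were 0.42 ± 0.38 and 0.19 ± 0.39 (SE, n = 6 per group, edgeR adjusted p = 0.675 and 0.810).

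Of the 14 glucocorticoid-induced genes tested in experiment 1, 11 had positive and 3 negative fold changes, with a median of 0.09 on the log2 scale. In experiment 2 it was 13 and 3 of 16, with a median of 0.20. It was 8 and 8 of 16 both with the share of reads outside genes as a covariate (median 0.01) and without the 5 libraries (median 0.03). Of all tested genes, 46.1% and 48.5% were positive in these fits. The directions of the list in experiment 2 thus were not seen with the covariate. The covariate cannot check them, since the share was largest in the rats with high Sgk1. Leaving out the 5 libraries cannot check the directions either, since these were the same rats. The 10 receptor chaperones had medians of 0.03 and 0.07, and the 8 coregulators 0.02 and 0.04, beside 0.00 over all genes. The gene with the lowest p among chaperones was Ptges3, the p23 partner of Hsp90, in experiment 1 (0.12 ± 0.07, edgeR adjusted p = 0.910) and Cdc37 in experiment 2 (-0.50 ± 0.36, adjusted p = 0.675). Among coregulators it was the coactivator Ncoa1 in experiment 1 (0.13 ± 0.08, edgeR adjusted p = 0.898). Of the genes of corticosteroid supply and transport, 3 were tested in experiment 1 and 2 in experiment 2. H6pd, which supplies the cofactor of the Hsd11b1 enzyme, had 0.24 ± 0.17 (edgeR adjusted p = 0.914) in experiment 1, and Srd5a1, a steroid reductase, had -0.15 ± 0.15 (adjusted p = 0.678) in experiment 2. Among the peptides and their receptors Adcyap1r1, the PACAP receptor, was the one gene tested, at 0.05 ± 0.06 and 0.17 ± 0.18 (edgeR adjusted p = 0.970 and 0.683).

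Across rats, part of the glucocorticoid-induced list varied with the members, as a description. In experiment 1, 8 of the 14 tested list genes (57.1%) had r over 0.5 with Sgk1, where 7.85% of all tested genes did, and 7 of 14 (50%) with Tsc22d3, where 8.42% did. With Fkbp5 it was 1 of 14 (7.14%), beside 8.86% of all genes. Dusp1 and Il6r of the list went the opposite way in experiment 1. Dusp1 had r = -0.79 with Tsc22d3 and -0.78 with Sgk1. Il6r had r = -0.51 with Tsc22d3, -0.56 with Sgk1 and -0.75 with Fkbp5. In experiment 2 it was 11 of 16 (68.8%) with Tsc22d3 and 12 of 16 (75.0%) with Fkbp5, but 31.2% and 24.7% of all genes also passed that value. With Sgk1 it was 10 of 16 (62.5%), beside 36.9%.

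The next 4 list genes, picked after their values were seen, show how far the high rats of experiment 2 extended beyond the members. Klf9, a transcription factor, was at 227 CPM in water gavage 1, 134 in water gavage 5 and 259, 235.5 and 179.5 in EtOH gavage 1, 2 and 3, and between 78.3 and 92.6 CPM in the other 7 rats. Pdk4, a kinase that inhibits pyruvate dehydrogenase, was at 37.7 and 23.9 CPM in water gavage 1 and 5 and at 37.8, 49.5 and 40.9 in EtOH gavage 1, 2 and 3, against 2.63 to 10.7 CPM in the others. Arrdc3, an arrestin-domain protein, was at 90.5, 57.0, 106, 103 and 69.8 CPM in the same 5 rats and at 15.3 to 27.1 CPM in the others. Per1, a clock gene, had the other order, with its 3 lowest values (32.1, 24.6 and 27.1 CPM) in water gavage 1 and EtOH gavage 1 and 2, and 38.9 to 68.2 CPM elsewhere. The genes of this list thus did not all follow the same order of rats.

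**Figure D5:**
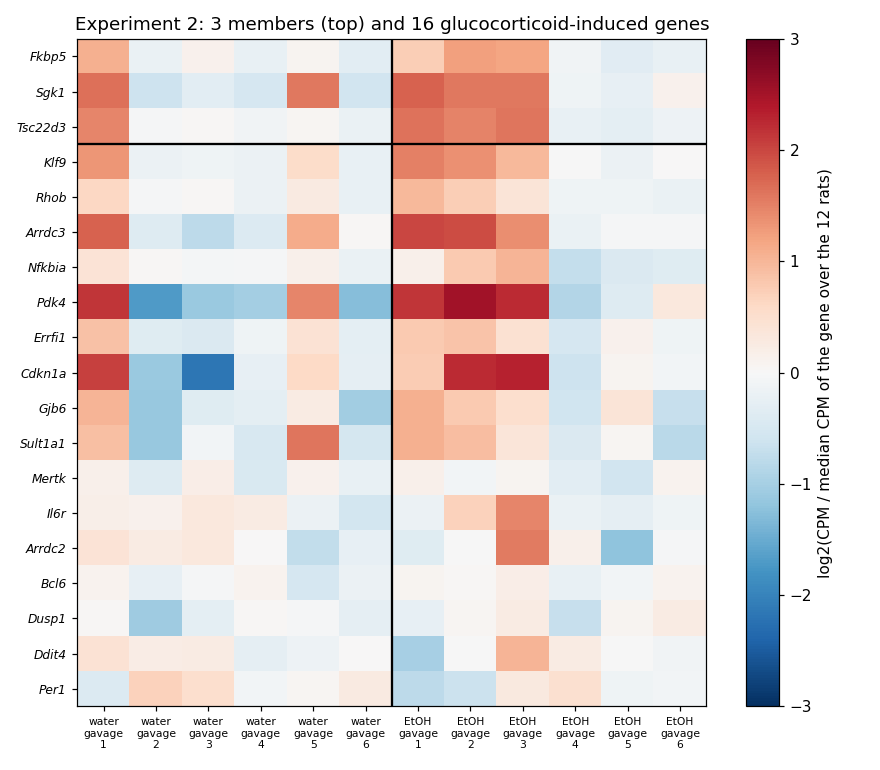
Level of Fkbp5, Sgk1, Tsc22d3 (above the line) and the 16 glucocorticoid-induced genes tested in experiment 2 in each of the 12 rats, as log2 of CPM over the median CPM of the gene. Red is above and blue below the median. Klf9, Arrdc3 and Pdk4 are red in the same 5 rats as Sgk1, and Per1 is blue in 3 of them.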

How the data were processed

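Groups and replicate numbers came from the sample labels, and the exposure schedule from the study's methods. The authors aligned reads to the rn6 genome (Rnor_6.0) with TopHat2 2.0.13, assigned them to genes with HTSeq and deposited raw read counts per gene, 1 file per rat. The submitters' processing notes also name DESeq2 1.6.2. Strand was recorded only in the libraries of experiment 2, which affects counts of overlapping genes. The annotation release and counting options were not given in the sources used here. The 5 summary lines of each file were kept out of library sizes. The share of reads outside genes is the line of reads in no counted feature over that line plus the gene counts. Since the counting options were not given, it may include reads in introns or on the other strand.

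From the counts, each experiment was fitted in edgeR 4.0.16 (R 4.3.3) with TMM, glmQLFit and glmQLFTest, on genes whose size-factor scaled mean count exceeded the median gene, after the study's 50% filter. Log2 CPM used a prior count of 2. Exact tests and correlations used scipy 1.17.1, with 100000 permutations for correlations over 10 rats. Replicates are separate rats. The number of reads in each value sets its precision, and limits from 0 reads (3 counts) cover counting error only. Start regions came from RefSeq (GRCr8), a build other than that of the counts, and were used for sequence only. The members and lists were chosen with earlier results of these data known. All 10 members were named, and from the pathway lists each gene with p under 0.05, otherwise the gene with the lowest p of its list. One gene that this rule names is not reported here. For each responsive member, the 3 genes most like it were named. The alternatives were DESeq2 1.42.0, its size factors, other filters, all 4 groups in 1 fit, a replicate block, the newer quasi-likelihood mode, a covariate for reads outside genes, a prior count of 0.5 and each rat left out.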

Additional observations from a re-analysis of the deposited data

Results flagged for a closer look

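In 48 sets of values (the 10 members, the reads on genes and the share of reads outside genes, in 4 groups), 5 held 1 rat farther from the rest than Dixon's 95% limit, where chance gives about 1 in 20. Crhr2 in water 2 was 3.46 CPM, with the other 4 water rats at 0 to 0.758. Crh in water gavage 4 was 2.35 CPM, with the other 5 at 0 to 0.802. Both rest on few reads. Nr3c1 in water gavage 5 was 351 CPM, with the others at 212 to 258. Fkbp5 in water gavage 1 was 217 CPM, with the others at 83.7 to 113. Tsc22d3 in water gavage 1 was 179 CPM, with the others at 56.2 to 67.4. EtOH gavage rats of a similar level exist for the last 3 genes, as given above, and water gavage 1 and 5 were among the 5 libraries with the most reads outside genes.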

How the results depend on the processing

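No gene and no member passed an FDR of 0.05 under any alternative run in either experiment. The replicate numbers are not known to pair rats: with the same number, deviations correlated between -0.125 and 0.144 in experiment 1 and between -0.759 and 0.835 in experiment 2. With the number as a replicate block, 476 genes of experiment 1 and 414 of experiment 2 had an unadjusted p under 0.05, against 483 and 115 without it, no member was called, and Tsc22d3 in experiment 2 was 0.44. Other counts of genes at that p were 820 and 286 with no filter, 79 and 623 with all 4 groups in 1 fit, 540 in experiment 2 without the 5 libraries, and with single rats left out 380 to 743 and 28 to 776 (28 without water gavage 2, 776 without EtOH gavage 4).

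Signs changed for fold changes near 0 and, in experiment 2, also for the 3 largest positive ones. With single rats left out, the log2 fold change in experiment 1 ranged from -0.078 to 0.29 for Crhbp, -0.033 to 0.079 for Nr3c2 and -0.045 to 0.37 for Sgk1, and in experiment 2 from -0.027 to 0.10 for Nr3c2, 0.01 to 0.22 for Nr3c1, 0.19 to 0.62 for Fkbp5, 0.25 to 0.78 for Sgk1, 0.37 to 0.94 for Tsc22d3, 0.14 to 0.35 for Crhbp and -0.48 to -0.26 for Hsd11b1. The differences in log2 CPM ranged in experiment 1 from -0.040 to 0.29 for Crhbp, -0.033 to 0.078 for Nr3c2 and -0.078 to 0.29 for Sgk1, and in experiment 2 from -0.57 to 0.10 for Crh and -0.26 to 0.11 for Crhr1. With the covariate in experiment 2, Nr3c1 was -0.029, Nr3c2 -0.00024 and Sgk1 -0.13. Without the 5 libraries the fold changes of Fkbp5, Nr3c2 and Tsc22d3 were -0.11, -0.077 and -0.19, and their log2 CPM differences -0.060, -0.034 and -0.15. The cause was not tested. The exact tests gave 0 to 1 members under 0.05 with single rats left out, in each experiment. In experiment 1, r with single rats left out ranged from -0.001 to 0.38 for Fkbp5 and Tsc22d3 and from 0.72 to 0.85 for Sgk1 and Tsc22d3. Within the lower set of experiment 2, with group means not removed, r was 0.15 for Fkbp5 and Sgk1 and -0.26 for Sgk1 and Tsc22d3. The few reads of Crh and Crhr2 limit what their comparison can show.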
